A study of Drosophila melanogaster with 2 samples.

Results

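The genes for the subunits of the 26S proteasome were examined for peaks of cato, an atonal-family transcription factor with a basic helix-loop-helix domain. They were taken as the protein-coding genes of the Ensembl BDGP6 annotation whose symbol begins with Prosalpha, Prosbeta, Rpn or Rpt followed by a digit, which gave 48 of 13986 genes. Of these, 32 are housekeeping subunits, 4 are testis-type paralogues with a T after the number (Prosalpha3T, Prosalpha4T1, Prosalpha4T2 and Prosalpha6T), and 12 are further paralogues with an R after the number. The choice used names alone and no measured value. The measurement was chromatin immunoprecipitation followed by sequencing (ChIP-seq) with an anti-GFP antibody, on chromatin of whole Drosophila melanogaster embryos, both sexes mixed, aged 0 to 16 h. The flies were of a transgenic strain, cato-GFP, that stably expresses cato with eGFP fused to its C terminus. The 1 condition had 2 biological replicates, numbered 1 and 3, and no input or untagged library was analysed here. Whole embryos mix all cell types, so a site used in few cells and a weak site in many cells cannot be told apart.

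The proteasome degrades proteins marked with ubiquitin. Its 20S core is a barrel of alpha rings, which gate the entrance, and beta rings, which hold the proteolytic sites, and its 19S regulatory particle binds the ubiquitin chains, removes them and unfolds the substrate. The base of the 19S particle holds the ATPases Rpt1 to Rpt6 with the subunits Rpn1, Rpn2, Rpn10 and Rpn13, and the lid holds the deubiquitinase Rpn11 and its partners. Every growing cell needs the particle, whereas the T paralogues replace their housekeeping relatives in the male germline of Drosophila. The known target sequence of basic helix-loop-helix proteins is the E-box, CANNTG.

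Peaks were found at few of these genes. An IDR peak, that is one the authors kept as reproducible between replicates, had its summit within 1000 bp of a start site of 3 of the 48 proteasome genes (6.25%), while 15.7% of all protein-coding genes had one. The genes were Rpn3, Rpn5 and Rpn11, which all encode lid subunits. They make up 3 of the 32 housekeeping genes (9.38%). Of the paralogues, 0 of 4 with a T and 0 of 12 with an R had one. The single-replicate lists gave similar counts. Among the 2746 strongest peaks of each, a number set to that of the IDR list, replicate 1 had a peak at 4 of the 48 genes (16.0% of all genes) and replicate 3 at 3 (15.3% of all genes). In these 3 lists the shares of the family lie below those of all genes. The pooled list, which the deposited text lists give as made from both replicates' alignments, differed. Its 2746 strongest peaks lay at 7 of the 48 genes (14.6%), which are 21.9% of the housekeeping genes, beside 13.5% of all genes. That list also differed from its sources, since 59.9% of its 2746 strongest peaks overlapped one of those of replicate 1 and 61.1% one of those of replicate 3, while 76.4% of those of replicate 1 overlapped one of those of replicate 3. Whether the family falls below all genes thus depends on the list, and no test of the differences was run.

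The sequence under the 4 IDR summits at these genes is shown first, because an E-box there would be the plainest trace of a basic helix-loop-helix protein. Each window reaches 50 bp to either side of the summit, is written 5′ to 3′ on the strand of the gene and comes from the RefSeq copy of the dm6 assembly. The windows are chr2L:19051717-19051817 (plus strand), chr3R:5789191-5789291 (plus strand), and chr2L:5059865-5059965 and chr2L:5060064-5060164 (minus strand). Capitals would mark an E-box or one of the DRE, BEAF, Motif 1 and Cnc-Maf sequences named below, and there are none.
Rpn3: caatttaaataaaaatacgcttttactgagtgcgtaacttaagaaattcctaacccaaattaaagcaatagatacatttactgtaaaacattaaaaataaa
Rpn5: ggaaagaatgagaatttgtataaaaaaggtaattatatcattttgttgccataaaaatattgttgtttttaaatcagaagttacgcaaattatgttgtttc
Rpn11, stronger peak: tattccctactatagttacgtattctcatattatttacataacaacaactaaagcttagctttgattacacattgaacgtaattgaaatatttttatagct
Rpn11, weaker peak: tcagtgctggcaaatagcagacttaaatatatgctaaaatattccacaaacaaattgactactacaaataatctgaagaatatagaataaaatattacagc
An E-box was in 0 of these 4 windows and in 32.7% of all 2746 IDR summit windows. The GC content of the windows was 23.8% at Rpn3, 23.8% at Rpn5, and 25.7% and 27.7% at Rpn11. No match says only that these letters are not in these windows.

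Rpn3 (FBgn0261396) had the strongest peak of the family. It encodes a lid subunit of the PCI domain group, the scaffold proteins of the lid. The IDR peak on chromosome 2L from 19051565 to 19051968 had a signal value of 165.9 and ranked 553 of 2746, and its summit was 23 bp upstream of a start site in intergenic sequence. The signal value is the one the authors gave each peak, and serves here only to rank peaks of the same list. Replicate 1 had a signal value of 58.3 at rank 487 of 30000, with the summit 12 bp upstream. Replicate 3 had 82.2 at rank 597, with the summit 30 bp upstream. It was the highest-ranked proteasome gene in each of the 3 lists, and the replicate summits were 18 bp apart. The start site of l(2)37Bb, on the other strand, was 155 bp from the IDR summit, so the peak serves both genes by the distance rule.

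The Rpn3 promoter holds an exact tandem repeat just before the summit. A stretch of 78 bp stands in direct succession, from position -187 and again from position -109 to -32 relative to the start site at 0. Its copies lie at chr2L:19051603-19051680 and chr2L:19051681-19051758, on the plus strand, and read as follows.
Rpn3 repeat unit: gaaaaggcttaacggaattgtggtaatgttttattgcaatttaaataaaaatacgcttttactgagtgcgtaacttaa
Exact direct repeats of 30 bp or more were found in 1 of 48 proteasome promoters and in 22 of 13945 promoters of protein-coding genes (0.158%), each counted from 250 bp before to 50 bp after the start site. Short reads from inside such a repeat can map to either copy, and how the authors treated them is not given in the sources used here. Their part in the peak was not tested.

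Rpn5 (FBgn0028690), another PCI subunit of the lid, had its IDR peak on chromosome 3R from 5789039 to 5789442, with a signal value of 150.1 at rank 675. Replicate 1 had a signal value of 50.9 at rank 627, and replicate 3 had 80.4 at rank 636. The summits were 252 bp upstream of the Rpn5 start site in the IDR list, 160 bp upstream in replicate 1 and 199 bp upstream in replicate 3. The peak is shared with Hat1, which encodes a histone acetyltransferase and starts on the other strand 109 bp upstream of Rpn5. The IDR summit was in an intron of Hat1, 143 bp from the nearest Hat1 start site and so closer to it than to that of Rpn5.

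Rpn11 (FBgn0028694), the metalloprotease that cuts ubiquitin chains off the substrate, had a pair of overlapping IDR peaks in intergenic sequence. The stronger ran from 5059713 to 5060116 on chromosome 2L with a signal value of 101.4 at rank 1496, and the weaker from 5059912 to 5060315 with 75.9 at rank 2381. Their summits were 125 and 324 bp upstream of its single start site. Replicate 1 resolved a single peak between them, 264 bp upstream, with a signal value of 28.3 at rank 1843. Replicate 3 had a peak 132 bp upstream (56.8, rank 1288) and another 337 bp upstream (31.1, rank 3470). The nearest start site of another gene, that of qtc, was 900 bp from the stronger summit. Among proteasome genes the summit at -324 was the farthest inside the limit of 1000 bp, and the nearest one outside it was 1966 bp from the start of Prosbeta6.

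**Figure D1:**
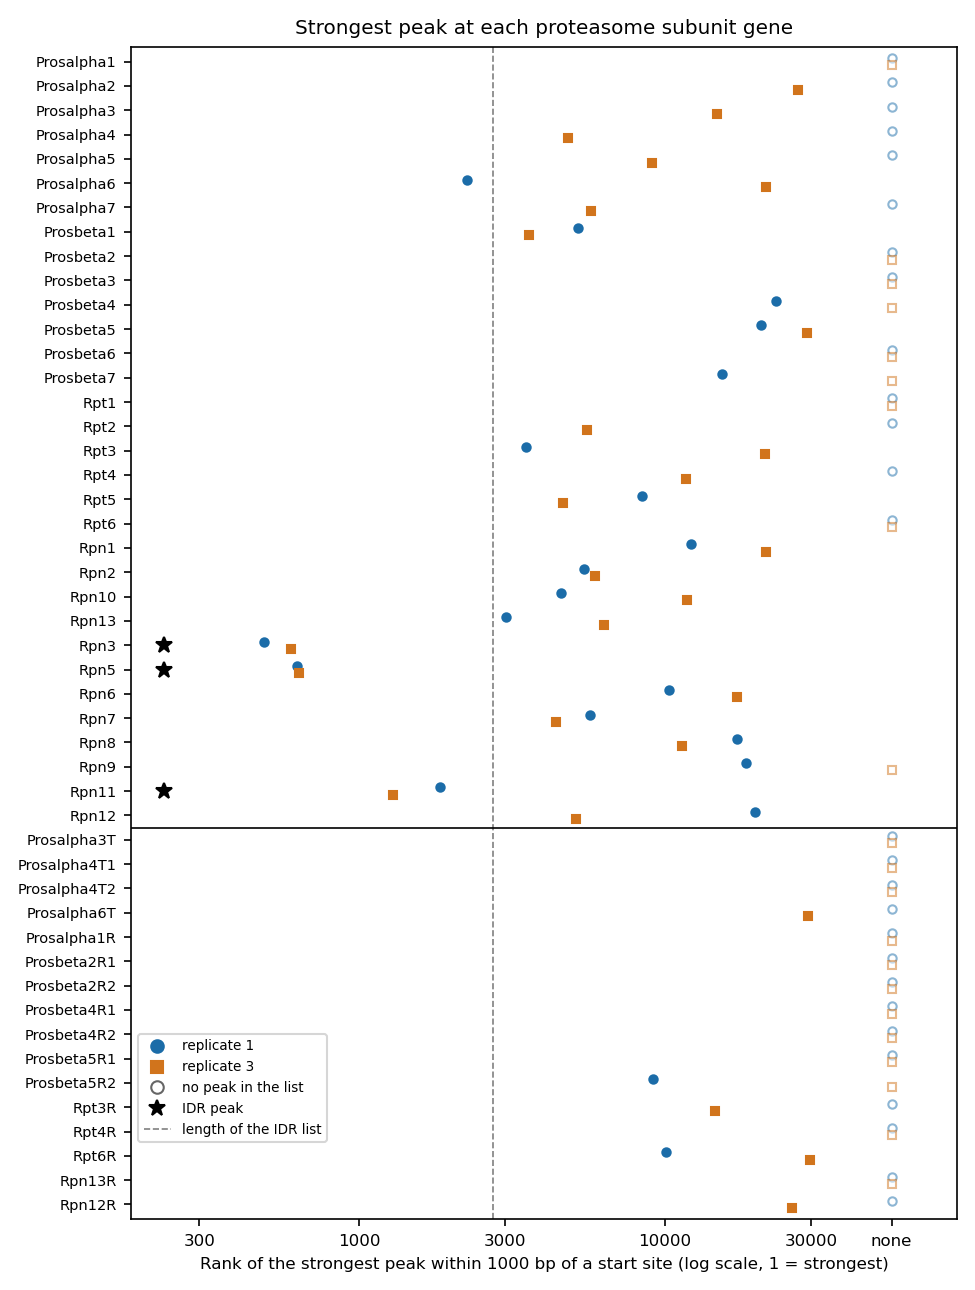
Rank of the strongest peak within 1000 bp of a start site for all 48 proteasome genes, in replicate 1 (circles) and replicate 3 (squares), on a log axis where 1 is the strongest of 30000, with housekeeping subunits above the line and paralogues below it. Stars at the left edge mark genes with an IDR peak, with no rank, and open symbols at the right edge mark genes with no peak in that list; Rpn3, Rpn5 and Rpn11 alone lie left of the dashed line at 2746 in both replicates.

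The rest of the family was read from the full replicate lists, which hold 30000 entries each, peaks plus background per the deposited text lists. Each entry is called a peak here, so a low-ranked one may be background. The lists reach down to signal values of 7.34 in replicate 1 and 9.92 in replicate 3. A gene without a peak there is below that limit, and may still have signal. Housekeeping subunits had a summit within 1000 bp in 19 of 32 cases in replicate 1 and 23 of 32 in replicate 3, or 59.4% and 71.9%. Paralogues had one in 2 of 16 and 4 of 16 cases, the first being 12.5%. Among all protein-coding genes the shares were 55.1% and 60.0%. In replicate 1 the share of housekeeping genes was near that of all genes, in replicate 3 the values were 71.9% and 60.0%, and the paralogues lay below all genes in both. No test of these differences was run.

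A peak in each replicate that overlapped the other by at least 1 bp was found at 14 of 32 housekeeping genes (43.8%) and 0 of 16 paralogues. The share among all protein-coding genes was 38.1%. Conversely, 6 of 32 housekeeping genes (18.8%) and 11 of 16 paralogues (68.8%) had no peak in either list, against 28.0% of all genes. Across the 17 proteasome genes with a peak in both lists, the ranks of the strongest peaks had a Spearman rho of 0.507, given as a description of genes that share the same libraries.

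**Figure D2:**
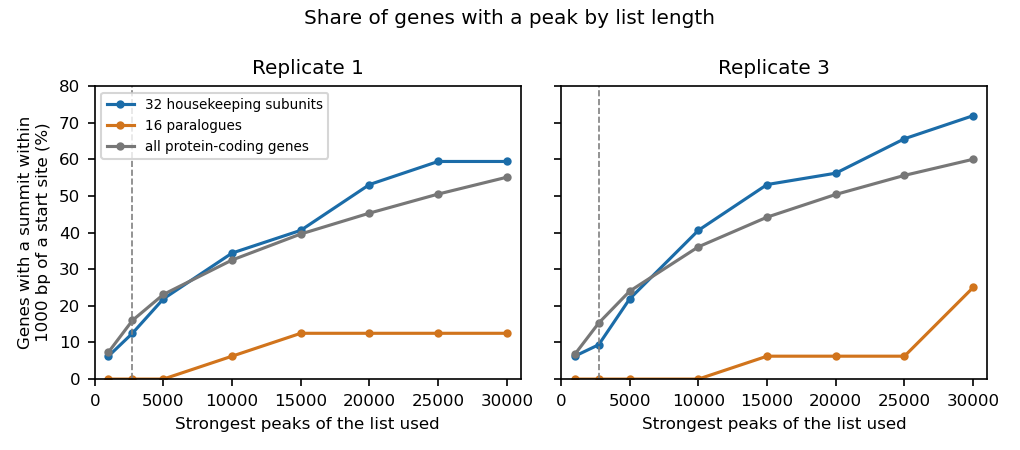
Percentage of genes with a summit within 1000 bp of a start site (vertical axis) as more of the strongest peaks of each replicate list are used (horizontal axis), for 32 housekeeping subunits, 16 paralogues and all protein-coding genes, with a dashed line at 2746 peaks. Housekeeping subunits start below the curve of all genes, cross it between 5000 and 10000 peaks and end at 59.4% and 71.9%, while the paralogues reach 2 of 16 genes in replicate 1 and 4 of 16 in replicate 3.

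Within the housekeeping set, overlapping peaks were at 11 of 18 genes of the 19S particle (61.1%) and at 3 of 14 genes of the 20S core (21.4%). Among all protein-coding genes the share was 38.1%. No test was run on these differences. In the lid, 6 of 8 genes had overlapping peaks (75.0%). Beside Rpn3, Rpn5 and Rpn11 these were Rpn6, Rpn7 and Rpn12, all PCI subunits. Rpn7 had a signal value of 14.7 in replicate 1 and 26.8 in replicate 3, at ranks 5700 and 4415. Rpn12 had 8.90 in replicate 1 and 24.5 in replicate 3, at the distant ranks of 19741 and 5118, and Rpn6 had 11.5 and 13.4. Each of these is well under the values of Rpn3 in the same list. Rpn8, the inactive partner of Rpn11, had peaks that did not overlap. They were 320 bp upstream in replicate 1 and 952 bp upstream in replicate 3 of the nearer of its 2 start sites. That is not its most upstream start site, and both summits lie within the gene. Rpn9 had a single weak peak, in replicate 1, 963 bp downstream of a start site.

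In the base, 3 of the 4 subunits that are not ATPases had overlapping peaks (75.0%, beside 38.1% of all genes). Rpn13, a ubiquitin receptor, had a signal value of 20.8 in replicate 1 and 21.7 in replicate 3, with summits 146 and 138 bp upstream and ranks of 3009 and 6314. These summits were slightly closer to a start site of CtsL1, at 125 and 133 bp. Rpn2, a scaffold subunit, had 15.0 and 22.6, with summits 174 and 111 bp upstream. Rpn10, the other ubiquitin receptor, had 16.4 and 16.0, with summits 241 and 417 bp upstream. Rpn1, a scaffold that docks ubiquitin shuttles, had peaks in both replicates that did not overlap.

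Of the 6 ATPases, which unfold the substrate and feed it to the core, 2 had overlapping peaks (33.3%), near the 38.1% of all genes. Rpt5 had a signal value of 12.5 in replicate 1 and 26.1 in replicate 3, with summits 52 bp upstream and 150 bp downstream of the start site. Rpt3 had 18.99 and 12.03, with summits 126 and 342 bp upstream. Rpt2 and Rpt4 had a peak in replicate 3 alone, at ranks 5552 and 11679. Rpt1 and Rpt6 had none in either list. A peak in 1 list alone was thus seen at 2 of 6 ATPases, and at 1 of 8 lid genes. Among all protein-coding genes 72.0% had a peak in at least 1 list, 55.1% in replicate 1 and 60.0% in replicate 3. A peak in 1 list alone is thus not particular to these groups.

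The 20S core had 0 IDR peaks at its 14 housekeeping genes. In the alpha ring, beside 60.0% and 55.1% of all genes, replicate 3 had a peak at 6 of 7 genes and replicate 1 at 1 of 7. That gene was Prosalpha6, with a signal value of 24.9 at rank 2259 in replicate 1, which puts it in the 2746 strongest. Its peak in replicate 3 had a signal value of 12.0 at rank 21396, so the replicates differed widely on it. Both summits were closer to a start site of Npc1a, at 49 and 102 bp, than to that of Prosalpha6, at 184 and 237 bp. Prosalpha4 (25.4, rank 4816) and Prosalpha7 (22.9, rank 5719) had the strongest peaks of replicate 3 in the ring and none in replicate 1. Prosalpha5 (18.1, rank 9094), Prosalpha3 (14.4, rank 14745) and Prosalpha2 (10.5, rank 27273) also had a peak in replicate 3 alone. Prosalpha1 had none in either list. In the beta ring, Prosbeta1, the caspase-like protease, had the best supported peak, with a signal value of 15.4 in replicate 1 and 30.4 in replicate 3 and summits 108 and 75 bp upstream. These summits were closer to a start site of Rrp42, at 13 and 46 bp. Prosbeta5, the chymotrypsin-like protease, had a weak pair 764 and 829 bp upstream (8.74 and 10.1). Prosbeta2, the trypsin-like protease, had no peak in either list, nor had Prosbeta3 and Prosbeta6, while Prosbeta4 and Prosbeta7 had a weak one in replicate 1 alone.

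**Figure D3:**
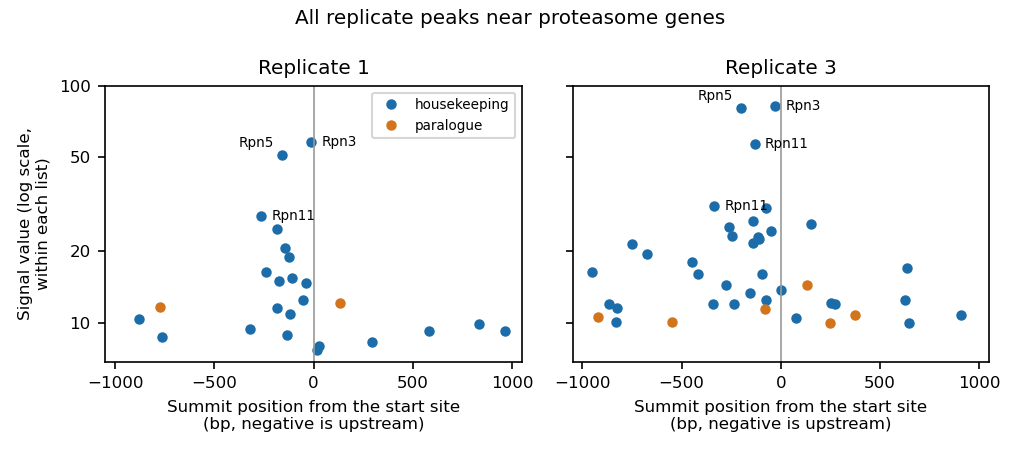
Position of each replicate peak relative to the nearest start site of the proteasome gene (horizontal axis, bp, negative is upstream) and its signal value within the list (vertical axis, log scale), for housekeeping subunits and paralogues. The strongest peaks, at Rpn3, Rpn5 and Rpn11, lie from 12 to 264 bp upstream in replicate 1. The paralogue peaks are scattered and reach signal values of 12.1 in replicate 1 and 14.5 in replicate 3.

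The peaks of housekeeping genes lay mostly upstream of the start site. Relative to the nearest start site of the gene, its strongest peak was upstream in 16 of 19 cases in replicate 1 (84.2%). In replicate 3 it was upstream in 21 of 23 (91.3%), and the median positions were -134 and -154 bp. Over all protein-coding genes with a peak, 71.0% and 71.9% were upstream, with medians of -138 and -137 bp. The paralogue peaks were upstream in 1 of 2 cases in replicate 1 and 1 of 4 in replicate 3. Many of these summits were closer to the start of a neighbour. In replicate 1 this held for Rpt5 (RanBP3 at 10 bp), Rpn2 (Slbp at 84 bp), Rpn6 (ave at 64 bp) and Rpn8 (Slik at 5 bp). It also held there for Prosalpha6, Prosbeta1, Prosbeta5, Rpn5 and Rpn13. In replicate 3 it held for Prosalpha3, Prosalpha4 (kat80 at 93 bp), Prosalpha6, Prosalpha7, Prosbeta1, Prosbeta5 and Rpt2. The same was so for Rpt3 (CG11122 at 33 bp), Rpt4 (mldr at 37 bp), Rpn1, Rpn5, Rpn6, Rpn8 and Rpn13. The others, such as those of Rpn7 and Rpn10 in both replicates, were closer to the proteasome gene.

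Set beside their relatives, the paralogues had fewer peaks. The 12 housekeeping subunits that have a T or R paralogue had a peak in at least 1 replicate list in 9 cases, and the 16 paralogues in 5, while 72.0% of all genes had one. For the housekeeping relatives this is near the share of all genes. Of the T paralogues, which belong to the alpha ring, Prosalpha6T had a peak in replicate 3 alone, with a signal value of 10.1 at rank 29290, close to the end of the list. Its relative Prosalpha6 had peaks in both lists. Prosalpha3T, Prosalpha4T1 and Prosalpha4T2 had none in either, whereas Prosalpha3 and Prosalpha4 each had one in replicate 3, at ranks 14745 and 4816. Prosalpha1 and its paralogue Prosalpha1R, a close neighbour on the same chromosome arm, had none.

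Among the R paralogues, Rpt6R was the single gene with peaks in both lists. They were 776 bp upstream in replicate 1 (11.6, rank 10094) and 247 bp downstream in replicate 3 (9.97, rank 29775), and did not overlap. Rpt6 itself had none, so this pair ran the other way. Prosbeta5R2 had a peak in replicate 1 alone (12.1, rank 9156), and Rpt3R (14.5, rank 14540) and Rpn12R (10.8, rank 25966) in replicate 3 alone. Rpn13R, Rpt4R, Prosbeta2R1, Prosbeta2R2, Prosbeta4R1, Prosbeta4R2 and Prosbeta5R1 had none. Prosbeta4R1 and Prosbeta4R2 lie next to each other, as the related Prosbeta4 does not. For close copies the authors' treatment of reads that map to several places is not given in the sources used here, and its part in these absences was not tested.

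The paralogues also lay farther from any IDR peak. The median distance from a start site to the nearest IDR summit was 8159 bp for the housekeeping genes, 44791 bp for the paralogues and 11837 bp for all protein-coding genes on chromosomes with IDR peaks. The distances ran from 23 bp (Rpn3) to 157612 bp (Rpt3) in the housekeeping set and from 3997 bp (Prosbeta2R2) to 151151 bp (Prosbeta5R2) in the paralogues, so the ranges overlapped widely. The T paralogues were between 9579 and 72931 bp away.

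**Figure D4:**
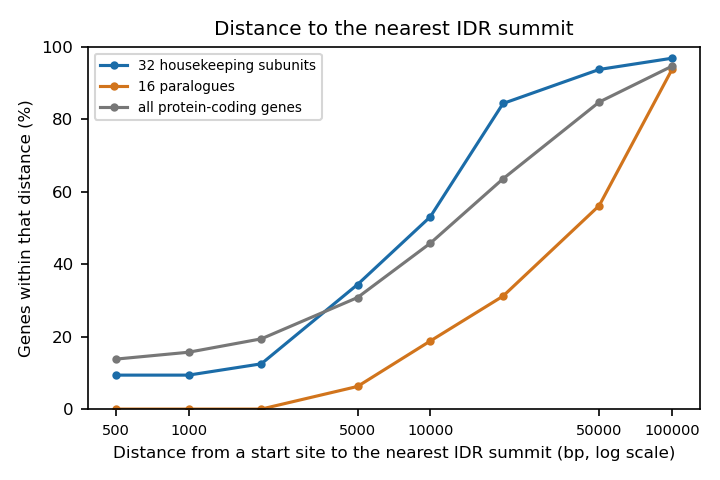
Percentage of genes whose nearest IDR summit lies within a given distance of a start site (horizontal axis, bp, log scale), for 32 housekeeping subunits, 16 paralogues and all protein-coding genes. At 20000 bp the curves stand at 84.4% for housekeeping subunits, 31.2% for paralogues and 63.6% for all genes.

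Housekeeping and paralogue promoters differed in arrangement. A protein-coding start site on the other strand within 1000 bp upstream, a divergent pair, was present at 19 of 32 housekeeping genes (59.4%), 3 of 16 paralogues (18.8%) and 35.2% of all protein-coding genes. Among all genes, an IDR peak was near 28.4% of the divergent ones and 8.76% of the others. Among the housekeeping genes the counts were 2 of 19 divergent ones (10.5%) and 1 of 13 others (7.69%). Rpn3 and Rpn5 are divergent, while Rpn11 has its nearest opposite start site 1025 bp upstream. What the arrangement contributes to the counts of peaks was not tested. The genes of both kinds mostly had a single annotated start site, 22 of 32 housekeeping genes and 14 of 16 paralogues, against 73.5% of all genes.

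Promoter sequence also differed between the classes. Letters were searched on both strands from 250 bp before to 50 bp after the most upstream start site, and a match is a description, not a bound site. The DRE, TATCGATA, the element of the DREF factor known from promoters of growth and replication genes, was in 12 of 32 housekeeping promoters (37.5%), 0 of 16 paralogue promoters and 9.36% of all 13945 promoters. The BEAF sequence, CGATAG, was in 37.5%, 12.5% and 19.5%, and overlapped a DRE in 3 of the housekeeping promoters. The core of Motif 1, GGTCACAC, was in 15.6% of housekeeping promoters, 0 of 16 paralogue promoters and 7.70% of all. The Cnc-Maf element, TGACNNNGC, which is bound by the Nrf2 relative that switches on proteasome genes under stress, was in 5 of 32 (15.6%), 1 of 16 (6.25%) and 8.63%. The E-box was in 71.9%, 68.8% and 77.2%, and its form CAGCTG in 3.12%, 6.25% and 17.7%. The GAGA repeat, GAGAG, was in 9.38%, 37.5% and 29.7%. The letters TATAAA were in 40.6%, 31.2% and 45.8%, counted at any position of the window and so not only where a TATA box lies.

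The 250 bp before the start site are shown for a pair of relatives, Prosalpha6 with a DRE and Prosalpha6T without, and for Rpn3 and Rpn11. Capitals mark the DRE, BEAF and E-box letters. The windows are chr2L:10221101-10221350 and chr2L:13231789-13232038 (plus strand), chr2L:19051540-19051789 (plus strand) and chr2L:5059791-5060040 (minus strand).
Prosalpha6: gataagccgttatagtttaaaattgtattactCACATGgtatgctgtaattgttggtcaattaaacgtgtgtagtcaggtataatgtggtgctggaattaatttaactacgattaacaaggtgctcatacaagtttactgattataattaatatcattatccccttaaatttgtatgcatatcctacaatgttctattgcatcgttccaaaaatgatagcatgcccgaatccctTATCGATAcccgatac
Prosalpha6T: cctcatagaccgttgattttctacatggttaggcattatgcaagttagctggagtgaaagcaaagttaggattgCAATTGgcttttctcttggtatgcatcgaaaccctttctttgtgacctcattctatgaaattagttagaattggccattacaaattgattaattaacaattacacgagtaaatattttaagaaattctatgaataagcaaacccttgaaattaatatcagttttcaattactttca
Rpn3: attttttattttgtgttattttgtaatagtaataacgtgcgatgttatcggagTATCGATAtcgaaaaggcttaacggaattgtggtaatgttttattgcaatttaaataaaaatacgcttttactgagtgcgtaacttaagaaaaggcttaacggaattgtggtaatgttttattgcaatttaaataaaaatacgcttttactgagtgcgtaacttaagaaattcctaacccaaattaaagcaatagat
Rpn11: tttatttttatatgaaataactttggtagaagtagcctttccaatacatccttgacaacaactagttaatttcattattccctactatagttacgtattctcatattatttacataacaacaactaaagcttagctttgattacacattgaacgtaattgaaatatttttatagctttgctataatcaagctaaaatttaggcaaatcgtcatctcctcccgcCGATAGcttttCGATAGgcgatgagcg
The DRE begins 16 bp before the start site in Prosalpha6 and 197 bp before it in Rpn3, where the repeat follows it. Rpn11 has no DRE, and its BEAF letters begin 27 and 16 bp before the start site, outside both summit windows. The single E-box upstream of Prosalpha6T begins 176 bp before its start site. The capitals of Prosalpha6 also mark an E-box that begins 218 bp before the start site. In the printed stretches of Rpn3 and Rpn11 no capitals fall within 50 bp of an IDR summit. These stretches stop at the start site. An E-box begins 37 bp after the start site in Rpn3 and 39 bp after it in Rpn5, both outside the summit windows.

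The DRE and the peaks were set side by side in the housekeeping genes. Those with a DRE were Prosalpha3, Prosalpha5, Prosalpha6, Prosbeta1, Prosbeta2, Prosbeta6, Rpt5, Rpn3, Rpn7, Rpn9, Rpn12 and Rpn13. Overlapping replicate peaks were at 7 of these 12 (58.3%) and at 7 of the 20 without one (35.0%). Among all protein-coding genes the shares were 56.2% with a DRE and 36.4% without. An IDR peak was at 1 of the 12 (Rpn3) and 2 of the 20, and at 23.5% and 14.9% of all genes with and without a DRE. The GC content of the promoters had a median of 33.5% in housekeeping genes, 32.7% in paralogues and 38.0% in all genes.

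**Figure D5:**
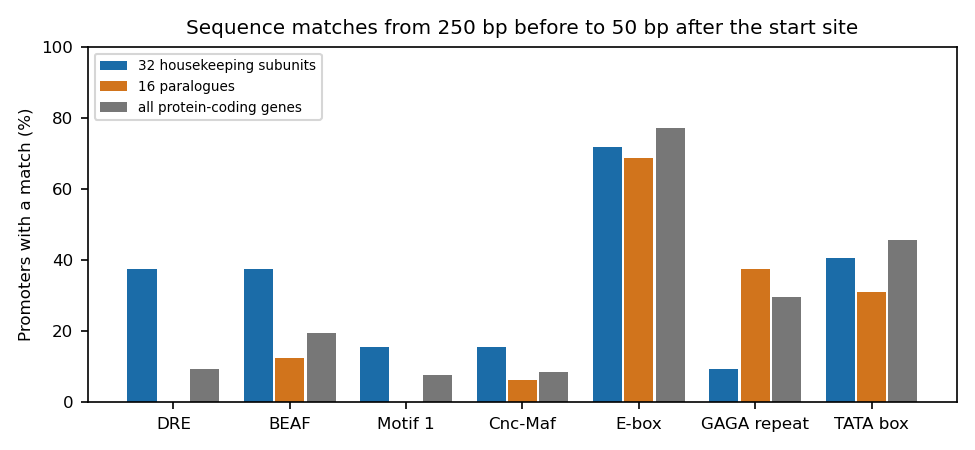
Percentage of promoters with at least 1 match to each named sequence, for 32 housekeeping subunits, 16 paralogues and all protein-coding genes. The bars labelled TATA box count the letters TATAAA at any position of the window. The DRE bars stand at 37.5% for housekeeping subunits, 0 for paralogues and 9.36% for all genes, while the E-box bars lie between 68.8% and 77.2%.

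Genes that assemble, feed or regulate the proteasome were taken from a list of 20 names, of which 19 matched the annotation and Ecm29 did not. An IDR peak was within 1000 bp of a start site of 5 of the 19 (26.3%), against 15.7% of all genes. The strongest was at Keap1, which holds the activator cnc in check, with a signal value of 279.9 at rank 172 of 2746 (83.9 in replicate 1 and 135.3 in replicate 3). That summit was at -803 bp from the Keap1 start site and 504 bp from the start of kuk. The gene cnc itself, which encodes the factor of the Cnc-Maf element, had a peak of signal value 72.6 at rank 2556, 342 bp downstream of 1 of its 10 start sites. Ubi-p63E, a polyubiquitin gene, had a peak of signal value 90.3 at rank 1816 (31.4 in replicate 1 and 46.1 in replicate 3). Pomp, the chaperone that matures the 20S core, had one of 73.1 at rank 2530, and PI31, a proteasome regulator, one of 72.9 at rank 2539. The peaks of cnc, Pomp and PI31 are near the foot of the IDR list, which ends at a signal value of 68.9. Without an IDR peak were Sem1, a small lid subunit outside the naming rule (17.6 in replicate 1 and 30.8 in replicate 3), the ubiquitin activating enzyme gene Uba1 (22.4 and 12.4), the deubiquitinase gene Usp14 (17.7 and 14.3) and the unfoldase gene TER94, which had a peak in replicate 3 alone (14.5). The other 10 had a peak in at least 1 replicate list and no IDR peak. A peak in at least 1 replicate list was also found at 72.0% of all protein-coding genes.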

How the data were processed

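ChIP-seq peaks were taken from the dm6 lists that the authors deposited, for 2 biological replicates (1 and 3) of cato-eGFP embryos. Per the deposited text lists, the replicate lists of 30000 entries hold peaks plus background and fed a test of irreproducible discovery rate (IDR), which left 2746 peaks. The lists were made with a control file, and a pooled list came from both replicates. Signal values are the authors' deposited ones. The sources used here name no peak caller or aligner and give no depth, so counting error is unknown. Labels give sonicated fragments of 200 to 800 bp.

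Start sites of all transcripts came from Ensembl release 115 (BDGP annotation 6.54). Sequence came from the RefSeq copy of the assembly. Peaks count for each gene with a start site within 1000 bp of the summit, so 1 peak can serve several genes. Computations used Python 3.11.15, numpy 2.4.6, scipy 1.17.1 and matplotlib 3.10.9, and the assignment was tested on simulated data. Named genes are all members, and the listed pathway genes with an IDR peak. The members and lists were chosen with earlier results of these data known, so counts are set beside those of all genes with no test. Sem1, Uba1, Usp14 and TER94 were named after their values were seen. Lists on dm3 were not used.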

Additional observations from a re-analysis of the deposited data

How the results depend on the processing

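The count of 3 proteasome genes with an IDR peak was 3 within 500 bp, 4 within 2000 bp (Prosbeta6 joins), 2 with each peak given to the nearest gene (Rpn5 passes to Hat1), 2 where the peak had to overlap a start site, 2 in the stronger 50% of IDR peaks and 3 with the most upstream start site only. From each replicate alone it was 3 to 4, with 9.38% to 12.5% of housekeeping genes and 0% of paralogues. The 2746 strongest peaks of the pooled list gave 7 genes, 21.9% of the housekeeping ones (13.5% of all genes), which puts the family (14.6%) near all genes and not below. The cause was not tested. Peaks in both replicates were at 3 genes among the 2746 strongest, 8 among the 10000 strongest and 17 in the whole lists, since longer lists hold more peaks. Among the promoters of the 3 genes with an IDR peak, 1 had a DRE, 1 had BEAF, 2 had an E-box and 2 had TATAAA. In the windows of 50 bp to either side of their 4 IDR summits, the DRE, BEAF and the E-box were each in 0 of 4. TATAAA was in 2 of these 4 windows. These windows differ from the promoters in both width and place. Of the 17 genes from the whole lists, 1 is a paralogue (Rpt6R, peaks not overlapping). No paired analysis was possible because there is 1 group. Unknown depth limits what a missing peak means.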

Other observations

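The pooled list, whose strongest peaks match those of the replicates less than the replicates match each other, placed a peak of signal value 21.1 at rank 1241 of 30000 inside Rpt1, 249 bp downstream of its start site, and another 34 bp downstream at rank 4293. Neither replicate list has a summit within 1000 bp of Rpt1. In the same list Prosalpha4, Rpt5 and Rpn6 were among the 2746 strongest, at ranks 2612, 1816 and 2508, beside Rpn3 (1066), Rpn5 (1026) and Rpn11 (1266).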
